A study of Homo sapiens with 4 samples.

Results

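Peaks labelled as HNF1 binding were examined around 8 genes of the intestinal microvillus and of epithelial adhesion, namely VIL1, CDHR2, CDHR5, MYO1A, CDH17, CDH1, EPCAM and LGALS4. A peak was taken when its midpoint lay in a fixed window of the hg19 genome build, made of the gene with flanks of about 50 kb. The windows held 14 peaks, 8 of the 5060 in the list of replicate 1 and 6 of the 4955 in that of replicate 2. The window of EPCAM and that of CDH17 each held 1 site found in both lists, and that of LGALS4 held 2 such sites. The windows of CDHR2 and CDH1 held peaks of 1 list at a time, and those of VIL1, CDHR5 and MYO1A held none.

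The lists came from chromatin immunoprecipitation and sequencing (ChIP-seq) of Caco2 cells, which derive from a human colorectal adenocarcinoma and take on enterocyte features in culture, grown in low glucose medium with serum and given no treatment by the labels. There were 2 immunoprecipitated libraries and 2 antibody-free inputs, and each list was called against the input of the same replicate number. The antibody field and the titles name HNF1, whereas the extraction text names FOXA2, and the catalogue number in the antibody field was not resolved and may be that of a FOXA2 antibody. Which of these factors the peaks belong to is therefore not settled, and HNF1 is used here as a label. Whether the replicates were separate cultures is not given, and the libraries are of 1 condition, so the lists were compared as replicates and no test was made. Replicate 1 had 11931439 tags and replicate 2 had 18469659. RNA and protein of these genes were not measured, so the membership of a gene in the set rests on its known role.

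Transcription factors of the HNF1 type carry a homeodomain and bind as dimers to a palindrome in epithelial tissues, the gut among them. Villin, the product of VIL1, bundles the actin filaments in the core of microvilli. CDHR2 and CDHR5 are protocadherins that link the tips of neighbouring microvilli, and MYO1A is a myosin that ties the actin core to the microvillar membrane. CDH17 is the liver-intestine cadherin, CDH1 is E-cadherin of adherens junctions, and EPCAM is an adhesion protein of the epithelial surface. LGALS4 encodes galectin-4, a lectin of the intestinal epithelium that stabilises lipid rafts of the brush border.

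Sequences of the peaks themselves are not shown, since no hg19 sequence was used here. Promoter sequences from RefSeq (build GRCh38.p14) were matched for 3 of the 8 genes, with 2 starts for CDHR2, 2 for MYO1A and 1 for LGALS4. The 250 bases before a start are printed for CDHR2, because a peak of replicate 1 lay inside the gene about as far from its left edge as the second start lies from the first, and for LGALS4, whose window held the most peaks. Each runs from 5′ to 3′ on the strand of the gene, and capitals mark GTTAAT, which is 1 arm of the HNF1 palindrome. The first CDHR2 promoter is chr5:176542261-176542510 and the second is chr5:176549092-176549341, both on the plus strand, and that of LGALS4 is chr19:38812946-38813195 on the minus strand.
CDHR2, first start: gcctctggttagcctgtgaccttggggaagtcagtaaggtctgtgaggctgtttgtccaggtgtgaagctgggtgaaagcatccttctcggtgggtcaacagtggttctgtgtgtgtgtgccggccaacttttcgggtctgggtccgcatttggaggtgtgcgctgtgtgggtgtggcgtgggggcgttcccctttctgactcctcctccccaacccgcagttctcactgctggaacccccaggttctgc
CDHR2, second start: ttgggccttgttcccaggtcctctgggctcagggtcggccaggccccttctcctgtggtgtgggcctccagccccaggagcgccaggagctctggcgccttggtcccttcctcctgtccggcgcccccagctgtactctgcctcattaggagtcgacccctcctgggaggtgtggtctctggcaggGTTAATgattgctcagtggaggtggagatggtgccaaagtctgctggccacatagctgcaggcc
LGALS4: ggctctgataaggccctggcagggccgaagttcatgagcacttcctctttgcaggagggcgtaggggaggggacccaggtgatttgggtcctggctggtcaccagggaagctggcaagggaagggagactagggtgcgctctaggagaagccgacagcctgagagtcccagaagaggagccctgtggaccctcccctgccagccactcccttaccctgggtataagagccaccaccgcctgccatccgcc

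GTTAAT occurred in 1 of the 5 promoters, the second of CDHR2, against 6.23% of 35116 RefSeq promoters of the same length. It lay 64 to 59 bases before that start, on the strand of the gene. The full palindrome was found on neither strand of the 5 promoters, exactly or with 1 mismatch, and it was rare among all promoters (0.0057% exactly and 0.137% with 1 mismatch). With 3 mismatches allowed, a setting chosen after the sequence had been seen, the second CDHR2 promoter matched at GTTAATGATTGCT, which includes the GTTAAT arm, and 6.90% of all promoters matched. The second MYO1A promoter in gene order held an HNF4 motif (CAAAGTCCA, 0.325% of all promoters) on the minus strand relative to the gene, 30 to 22 bases before the start. The other MYO1A promoter held a CDX motif (TTTATTG, 3.67% of all promoters) and the FOXA motif TATTTAC (2.39% of all promoters). The remaining motifs were searched on both strands as well. None of the 5 promoters held the FOXA form TGTTTAC, the CDX form TTTATGG, the GATA form AGATAA or the AP-1 motif TGANTCA. These were found in 2.98%, 2.30%, 9.17% and 6.57% of all promoters. GATA forms other than AGATAA were not searched. A list of 30 symbols of microvillus and adhesion genes, among them PCDH24, an older symbol of CDHR2, was also searched. By symbol it matched 23 genes with 38 promoters, of which 3 held GTTAAT, against 6.23% of all promoters. With so few promoters no excess can be read from this. The full palindrome was in 0 of the 38 exactly or with 1 mismatch, and in 1 with 3 mismatches, against 6.90% of all promoters. The AP-1 motif was in 2. The FOXA form TGTTTAC, the CDX form TTTATGG and AGATAA were in 1 each. The remaining motifs were in 0. These matches describe letters and do not show binding.

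The score of a peak is the authors' value, HOMER's tag count scaled to 10000000 tags per library and rounded. It was used to rank peaks within a list. Tags given beside a score undo this scaling and are rough. Even with rounding allowed for, 258 peaks of replicate 1 and 17 of replicate 2 score below the scaled calling threshold of their list. Among the window peaks, the site with the highest score in both lists was that of EPCAM, at 47572347 to 47572489 of chromosome 2 in replicate 1 and 47572317 to 47572543 in replicate 2. It scored 25 in replicate 1, or about 29.8 tags, and 21 in replicate 2, or about 38.8 tags. Counting ties at their best rank, the EPCAM site ranked 705 of 5060 in replicate 1 and 647 of 4955 in replicate 2. None of the 14 window peaks was among the top 10% of its list, which began at scores of 29 and 24. Its midpoints in the libraries were 12 bp apart.

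The EPCAM site lay 0.42 kb inside the left edge of the gene as the window draws it, that is the window without its 50 kb flanks. That edge is rounded to 1 kb and is uncertain as a gene start, so the site may not lie within the gene. The window leaves 42 kb for EPCAM, whereas the RefSeq gene in GRCh38.p14 is 17.7 kb long, and for the other 7 genes the 2 lengths differed by less than 1 kb. A second EPCAM peak was in the list of replicate 1 alone, at 47537176 to 47537318, which is 34.8 kb to the left of that edge. It scored 15, about 17.9 tags, and the nearest peak of replicate 2 was the EPCAM site 35.2 kb away. Of the 116 replicate 1 peaks with a score of 15, 76.7% had a partner in replicate 2, so this EPCAM peak belonged to the minority without one. It was the highest scored of the 6 window peaks found in 1 list.

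CDH17 had 1 site in both lists, at 95220802 to 95220944 of chromosome 8 in replicate 1 and 95220769 to 95220995 in replicate 2. Its score was 20 in replicate 1 and 13 in replicate 2, about 23.9 and 24.0 tags. The near-equal tag numbers came from libraries of unequal depth, and the tag window was 142 bp wide in the first library and 226 bp in the second. In replicate 1 the CDH17 site followed that of EPCAM, and in replicate 2 it was the lowest of the 4 shared sites. The midpoints were 9 bp apart, the closest of the 4 pairs. The site lay inside the gene as drawn, 9.13 kb from its right edge, and its annotation as exon, intron or start was not examined here.

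The LGALS4 window was the only one of the 8 with more than 1 shared site. One site lay at 39274955 to 39275182 of chromosome 19, with scores of 18 and 17 in replicates 1 and 2. The other lay 20.4 kb to its left, at 39254538 to 39254784, with scores of 13 and 18. By rounded score the order of these LGALS4 sites thus differed between the libraries, and neither could be called the higher. In replicate 2 they were nearly tied, at about 31.4 tags for the first site and 33.2 for the other. Their midpoints in the libraries were 43 and 62 bp apart. At the length of this window, 112 kb, 1.47% of 26013 non-overlapping stretches along the chromosomes held 2 or more shared sites. Over the lengths of the 8 windows this share was 1.37% to 3.33%. It is a description that takes no account of where genes lie, and LGALS4 was picked out here because of its count.

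LGALS4 is read on the minus strand in RefSeq, so its start is at the right edge of the gene as drawn. Both shared sites lay beyond the other edge, 16.9 and 37.3 kb past the end of the gene. The protein-coding genes next to LGALS4 on that side, in RefSeq order, are LGALS7B and LGALS7, which encode another galectin and were named after the positions had been seen. The peaks closest to LGALS4 itself were in 1 list each. A replicate 2 peak at 39298364 to 39298590 lay inside the gene, 5.52 kb from the right edge, and scored 8. It had about 14.8 tags, against a threshold of 13, and was tied over ranks 3724 to 4455 of 4955. A replicate 1 peak at 39309950 to 39310092 lay 6.02 kb beyond the right edge, on the side of the start, and scored 9. This one had about 10.7 tags, against a threshold of 9, and was tied over ranks 3318 to 3768 of 5060. These peaks were 11.5 kb apart and are separate positions.

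CDHR2 had 1 peak in each list, at different places. The replicate 1 peak at 175976207 to 175976349 of chromosome 5 scored 10, about 11.9 tags, and lay 7.28 kb inside the left edge of the gene. The 2 RefSeq starts of CDHR2, whose promoters are printed above, are 6.83 kb apart in GRCh38.p14. The window edges are rounded to 1 kb and positions were not converted between builds, so overlap of the peak with the second promoter was not tested. The replicate 2 peak, at 175930603 to 175930829, lay 38.3 kb to the left of the gene and scored 8, tied over ranks 3724 to 4455 of 4955. The 2 CDHR2 peaks were 45.6 kb apart. CDH1 had a single peak, in replicate 1 at 68778792 to 68778934 of chromosome 16, which lay 7.86 kb inside the left edge of the gene. It scored 8, which put it between ranks 3769 and 4802 of 5060 because of ties, and the nearest replicate 2 peak was 249 kb away.

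**Figure D1:**
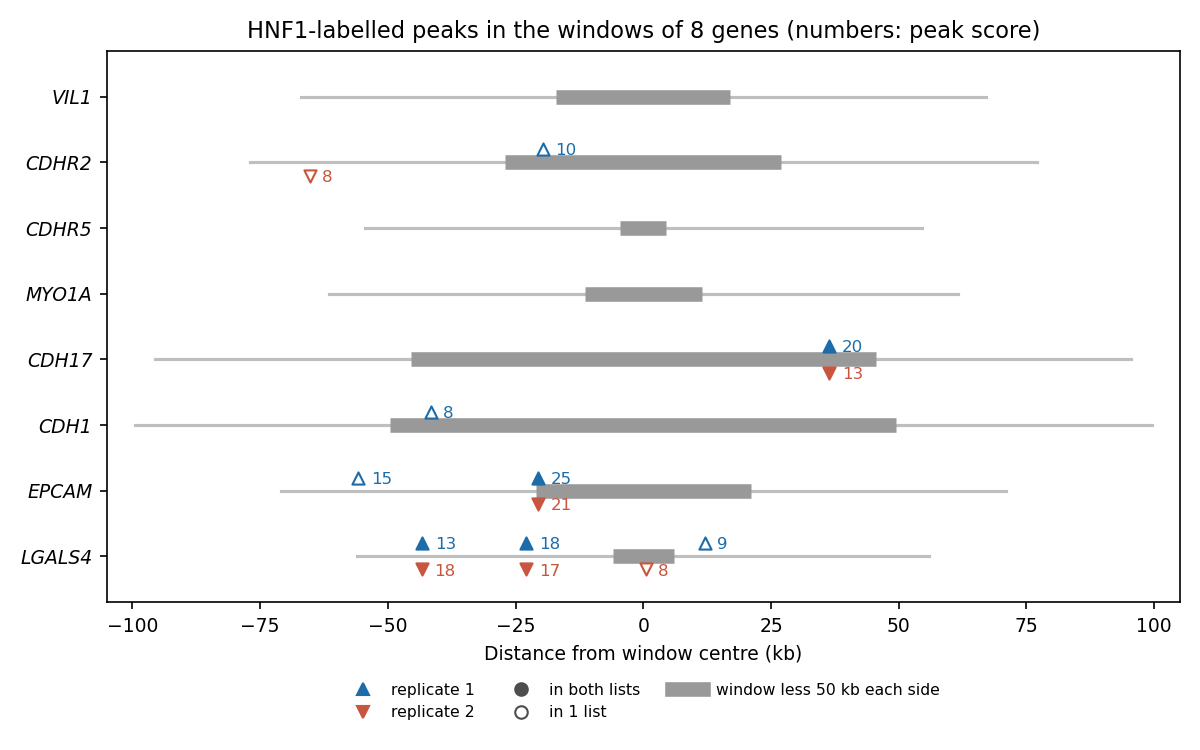
Peaks in the 8 windows, placed by distance from the window centre in kb, with replicate 1 above and replicate 2 below each line, filled where found in both lists, and with the peak score as a number. Thick bars are the windows without 50 kb on each side. EPCAM, CDH17 and LGALS4 carry filled pairs, and the lines of VIL1, CDHR5 and MYO1A are empty.

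No peak of either list lay in the windows of VIL1, CDHR5 and MYO1A, that is of the actin bundler, the second protocadherin and the brush border myosin. A shared site lay just outside the CDHR5 window, however, with its midpoint 4.49 kb beyond the left edge. It was at 561442 to 561584 of chromosome 11 in replicate 1, with a score of 19, and at 561400 to 561626 in replicate 2, with a score of 11. This site would have counted in the CDHR5 window with wider flanks, but the gene it belongs to was not determined. The window peak closest to an edge, the replicate 2 peak of CDHR2 with its score of 8, was 11.7 kb inside. The nearest peak to the MYO1A window was 45.9 kb past its right edge in replicate 1 alone, with a score of 13, and the nearest shared site was 267 kb away. For VIL1 the nearest peaks formed a shared site 137 kb to the left of the window, which scored 23 in replicate 1 and 14 in replicate 2. An absent peak says that no call passed the authors' thresholds, not that the factor was absent.

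By count, 5 of the 8 windows held a replicate 1 peak, 4 held a replicate 2 peak and 3 held a shared site. Over the genome, cut into 19952 non-overlapping stretches of 146 kb, the mean window length, 18.5% held a replicate 1 peak, 17.8% a replicate 2 peak and 11.8% a shared site. The windows together span 1.16 Mb and held 6.87 peaks per Mb of replicate 1 and 5.15 of replicate 2, against 1.74 and 1.70 per Mb along the chromosomes. For shared sites the densities were 3.44 and 0.997 per Mb. The stretches include sequence without genes, windows of other genes were not compared, and these 8 genes were chosen with results of the same lists known, so no excess particular to the set can be read from this. LGALS4 and EPCAM alone gave 5 of the 8 replicate 1 peaks and 4 of the 6 replicate 2 peaks.

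Recurrence in the windows was 4 of 8 peaks of replicate 1, or 50% (Wilson 95% interval 21.5% to 78.5%), and 4 of 6 of replicate 2, or 66.7% (29.999% to 90.3%). The whole lists had 57.5% and 58.6%, within these intervals, which cover counting error only. The unshared peaks had scores of 8 for CDH1, 9 for LGALS4, 10 for CDHR2 and 15 for EPCAM in replicate 1, and 8 for both CDHR2 and LGALS4 in replicate 2. In the whole replicate 1 list, 76.7% of the peaks that scored 15 as EPCAM did had a partner, and fewer did at the lower scores. A partner was found for 28.4% of replicate 1 peaks that scored 8 as CDH1 did, for 40.8% at the 9 of LGALS4 and for 44.4% at the 10 of CDHR2. Of the replicate 2 peaks that scored 8, 31.1% had a partner. The 4 shared sites scored at least 13 in each list, and the medians of the window peaks were 14 and 15, against 12 and 11 in the lists.

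**Figure D2:**
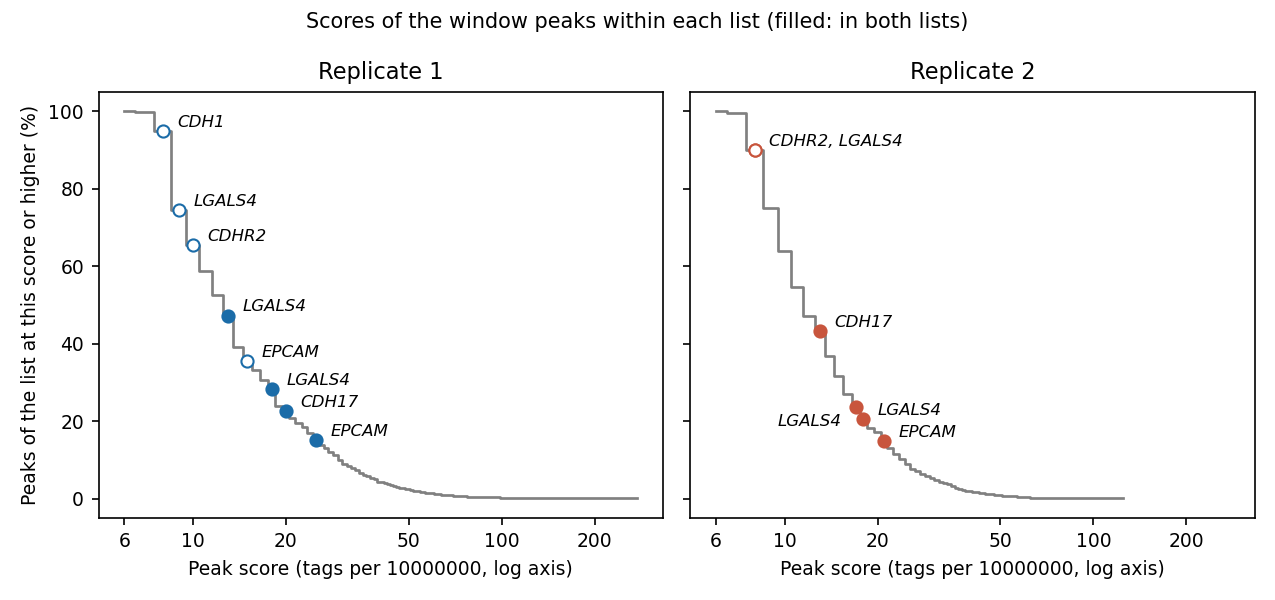
Share of each list in percent at or above a score (grey line, log axis of tags per 10000000), with the window peaks as points, filled where found in both lists. Among the window peaks EPCAM lies furthest right, at 25 in replicate 1 and 21 in replicate 2, and the point at 8 in replicate 2 stands for a CDHR2 and an LGALS4 peak.

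**Figure D3:**
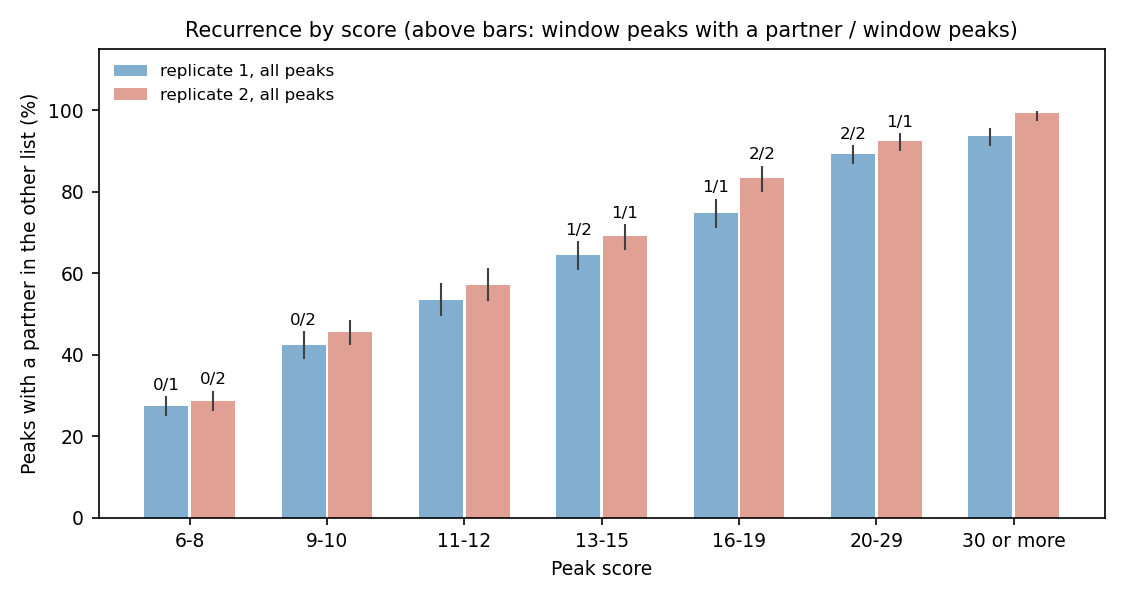
Share of all peaks of each list with a partner in the other list, in percent, by class of score, with Wilson 95% intervals as error bars. Above the bars stand the window peaks with a partner over all window peaks of the class, and every window peak that scored 16 or more had one. Of all peaks that scored 16 to 19, 74.9% in replicate 1 and 83.4% in replicate 2 had one. A shared site can count in both lists.

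The scores of the 4 shared pairs were set against those of all 2907 pairs, for which the log2 ratio of replicate 1 to replicate 2 had a median of 0.17, quartiles of -0.27 and 0.62 and an SD of 0.64. The ratio was 0.25 for EPCAM and 0.08 for the right-hand LGALS4 site, both between the quartiles. For CDH17 it was 0.62, at the upper quartile. The left-hand LGALS4 site had -0.47, below the lower quartile, and 16.1% of pairs had a lower ratio still. These ratios also carry the unequal tag windows, so they cannot be read as differences in occupancy. Among the sites of CDH17 and LGALS4 the order by score was not the same in the 2 libraries.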

How the data were processed

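The 2 deposited peak lists of HNF1-labelled ChIP-seq in Caco2 cells were used, 1 per library. The hg19 build, HOMER 1.2 and Bowtie 1.0.0 are named, without roles, per the submitters' processing notes. HOMER findPeaks in factor style called each library's peaks, per the file headers (false discovery rate 0.001, at least 4-fold over input and over the local 10000 bp, Poisson limits of 0.0001). Thresholds were 9 tags in replicate 1 and 13 in replicate 2, which scale to 7.54 and 7.04. Deposited scores go down to 6. With rounding allowed for, 258 peaks of replicate 1 and 17 of replicate 2 still lie below these values. The deposited scores thus do not follow the threshold exactly. Deposited widths are 143 and 227 bp. The score deposited by the authors is a tag count scaled to 10000000 tags and rounded, so approximate tags were obtained by undoing the scaling, and scores were not tested as counts. Inputs entered only through calling.

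Positions count from 1. Peaks overlapping by at least 1 bp were called shared and joined into sites. Chromosomes were cut into stretches between the first and last peak of both lists. Members, lists and rules were chosen with earlier results of these data known. By rule, all 8 genes are named and all window peaks accounted for. The 2 unlisted neighbours of LGALS4 are an exception. No hg19 annotation or sequence was used, so the planned motif search used promoters of GRCh38.p14 instead. Overlap, stretch and motif counts were tested on simulated data. Software was pandas 2.3.3, scipy 1.17.1, numpy 2.4.6 and matplotlib 3.10.9 under Python 3.11.15. Other overlap rules, score limits, peak widths and flanks were tried.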

Additional observations from a re-analysis of the deposited data

How the results depend on the processing

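Requiring 50% of both peaks to overlap, midpoints within 100 bp, or all peaks at 200 bp left the shared sites at 4, in the windows of EPCAM, CDH17 and LGALS4. With only peaks at or above the median score of their list, the shared share was 80% of 5 peaks in replicate 1 and 100% of 4 in replicate 2, since low scored peaks were left out. Flanks cut by 50 kb kept 2 shared sites (EPCAM and CDH17), 4 peaks of replicate 1 and 3 of replicate 2, by construction. The EPCAM site stayed only because it lies just inside an edge that is uncertain as a gene start. Flanks cut by 25 kb kept 3 shared sites, and flanks widened by 50 kb gave 5, in 4 windows with CDHR5 added. With 3 mismatches, 1 member promoter matched the full HNF1 site against 0 exactly. No paired analysis was possible because peak lists were used for the immunoprecipitations alone, 1 each, and for the same reason no replicate could be left out. Motif searches in the peaks and the counts of peaks around the genes of the 30 listed symbols were not run. No hg19 sequence or annotation was used here. No alternative varied sequencing depth.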
